A study of Mus musculus with 8 samples.

Results

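Mouse genes that face each other on opposite strands can end in the same stretch of DNA, so that their 3' untranslated regions (3' UTRs) overlap tail to tail. Such overlaps were collected here from a table of 3' UTR intervals measured by RIP-seq, which sequences the RNA that an antibody pulls down (the immunoprecipitate, IP) and the RNA of the same lysate before the pull-down (Input). A member is a row whose interval shares at least 1 base with a row of the opposite strand, where both rows have a mean normalized count of at least 1 over all libraries. This rule gave 939 rows of 20586, or 4.56%, which form 477 pairs. A further 44 overlapping pairs fell short of the count threshold. Both rows had an adjusted p in 98 of the 477 pairs, 1 row in 190 and neither in 189. Members were thus chosen by their position and their mean count, which is given below as a description. The rule uses no value from the comparison of KO with WT. It was set with earlier results of these data known, so the choice was not blind to them.

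The study's cells were murine mammary epithelial cells of a C57BL/6J 129 strain, freshly isolated with enzymes and an epithelium-enriching kit, with no treatment. The sources used here do not give the animals' age. The antibody was against CPEB2 in both genotypes, Cpeb2 knockout (KO) and wild type (WT). The groups were KO IP, KO Input, WT IP and WT Input, each of 2 libraries from RIP experiments 2 and 3 and cell preparations 3 and 4, which the labels do not tie to separate animals. Only Input RNA was selected for poly(A), so IP and Input also differ in that step in both genotypes. How the knockout was made, and which part of Cpeb2 it removes, was not known here.

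CPEB2 is a member of the CPEB family, RNA-binding proteins that recognise short U-rich elements in 3' UTRs and regulate poly(A) tail length and translation. The 3' UTR is therefore the part of an mRNA where such a protein is sought. Where the 3' UTRs of convergent genes overlap, a read from the shared stretch can come from either strand, and only a library and a count that both keep strand can assign it to 1 gene. The library kit that the labels name, NEBNext Ultra II RNA, is the version that does not mark strand, so reads of a shared stretch cannot be told apart by gene in these data. How the authors' counting treated such reads was not known here.

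The authors deposited 1 log2 value per group, on the scale of log2(normalized count + 1). They also deposited the interaction, which is the log2 IP over Input in WT minus that in KO, with its standard error (SE) and a DESeq2 Wald test. The interaction runs against the order of the genotypes used here, so a positive value means lower recovery over Input in KO. Depth per library is unknown here, since only group values could be used. Precision rests on the authors' SE, whose median was 0.51 over the 378 member rows with an adjusted p and 0.49 over all 5327 such rows in the authors' deposited table. Rows with a mean normalized count under 42.9 carry no adjusted p.

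The defining markers of mammary epithelium were all measured. Each of 52 markers in 7 cell type lists had a row with a count, those of other cell types included. The 10 luminal and pan-epithelial markers summed to 4416 normalized counts in KO IP, 4247 in KO Input, 5343 in WT IP and 3889 in WT Input, from the authors' group values. The 8 endothelial markers summed to 1025, 1515, 2188 and 1324 in the same order, and the 8 fibroblast markers to 3969, 3440, 2775 and 2978. The basal sums were 1071, 1632, 1246 and 1719, the adipocyte sums 508, 1194, 516 and 1045, the immune sums 209, 234, 94.1 and 170, and the red cell sums 20.3, 109, 7.66 and 75.5. The part of other cell types in the results below was not tested. The only marker that is a member was Alas2, the haem synthesis enzyme of red cells. It lies inside the 3' UTR of Apex2, a DNA repair endonuclease, on chromosome X, with a mean normalized count of 1.57 beside 18.0 for Apex2 in the authors' deposited table.

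The pairs fell into 3 arrangements. In 287 pairs the intervals overlapped tail to tail, so that the shared stretch held the poly(A) end of both transcripts. In 157 pairs one interval lay wholly inside the other. In 33 pairs each interval ran past the stop codon end of the other. No pair had the same interval on both strands. The shared stretch ran from 2 to 3533 bases, with a median of 209 and quartiles of 72 and 507. It made up a median of 62.1% of the shorter interval. Over the 473 distinct pairs of intervals the shared bases summed to 179.51 kb. Most rows had 1 partner, and 14 were in more than 1 pair, up to 3. In 21 rows the file gives no symbol, and 8 rows repeat the interval and strand of another member.

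**Figure D1:**
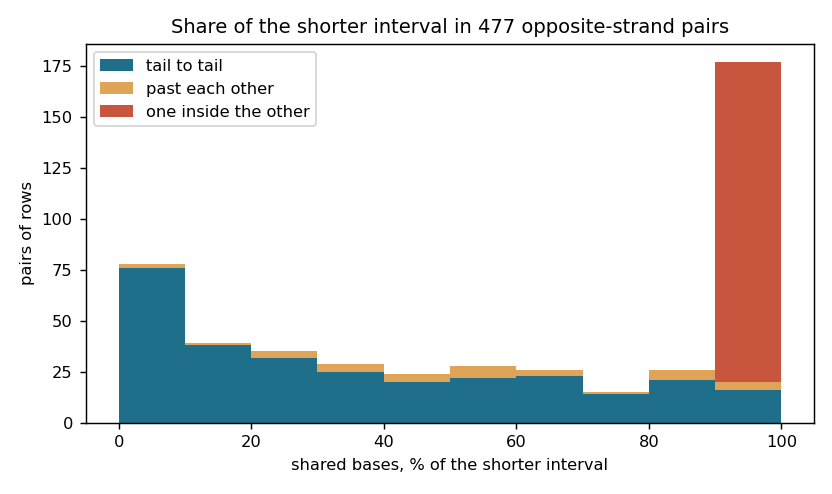
Number of pairs of rows (y axis) by the shared bases as a percentage of the shorter interval (x axis), stacked by arrangement, for all 477 pairs. The tallest bar holds the 157 pairs with one interval inside the other, and the bar next in height lies at the smallest shares.

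The longest shared stretch, of 3533 bases, joined Nr2c2, an orphan nuclear receptor gene, and Mrps25, which encodes a mitochondrial ribosomal protein. The next, of 2758 bases, joined Gse1 and Gins2, a subunit of the DNA replication complex GINS, and covered 99.0% of the shorter interval. Gse1 and Gins2 had mean normalized counts of 151.9 and 151.8 in the authors' deposited table, and interactions of 0.45 and 0.38. These pairs were chosen for their length after values were seen. At the other end of the rule, Mybph inside Adora1 was the pair just inside the count threshold, with 1.03 for its lower row, and the pair just outside had 0.962.

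Members lay on every autosome and on chromosome X. Among rows past the same count threshold, their share ran from 3.95% on chromosome X (18 of 456) to 9.13% on chromosome 17 (62 of 679). A microRNA gene can share such an interval too. A microRNA hairpin lies on the minus strand at chr17:25831365-25831428 (GRCm38.p6, the assembly of mm10), inside the 3' UTR of Jmjd8 and outside that of its partner Stub1, a ubiquitin ligase gene. It was the only microRNA of the RefSeq table that fell in a member interval. Its mature sequences (RefSeq, GRCm38.p6) are shown because they are a further transcript that the annotation places on a member, with the seed (bases 2 to 8) in capitals and no seed in common:
mmu-miR-3082-3p: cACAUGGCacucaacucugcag
mmu-miR-3082-5p: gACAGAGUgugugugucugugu

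Of the 378 members with an adjusted p, 8 were recovered less in KO than in WT by the DESeq2 Wald test of the authors' deposited table, with adjusted p under 0.05, and 0 were recovered more, against 0% of all adjusted rows. That is 2.12% of these members, against 2.25% of all adjusted rows, so calls were about as frequent among members as in the whole table. At an unadjusted p of 0.05, 26 members (6.88%) were lower in KO, against 12.5% of all adjusted rows, and 5 (1.32%) were higher, against 1.09%. The calls described here were Ccnd1, Hdac7, Kmt2e, Oraov1, Sppl3, Supt16 and Rpgrip1. With adjusted p under 0.10 the count of members was also 8, against 3.17% of all adjusted rows. The calls lie in 6 pairs. In 2 of these pairs both rows passed, in 3 the partner was tested and did not pass, and in 1 the partner had too low a count for an adjusted p. When p-values were adjusted over the whole table, 3 members passed, Ccnd1 and Hdac7 among them, while Kmt2e, Oraov1, Sppl3, Supt16 and Rpgrip1 did not (Wald test, adjusted p from 0.0921 to 0.127). None of the 8 passed under all of 3 alternatives. Ccnd1 missed the threshold once the running median over 3' UTR length was subtracted (Wald test, adjusted p = 0.0614), and Hdac7 once the median of all adjusted rows was (Wald test, adjusted p = 0.0840).

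**Figure D2:**
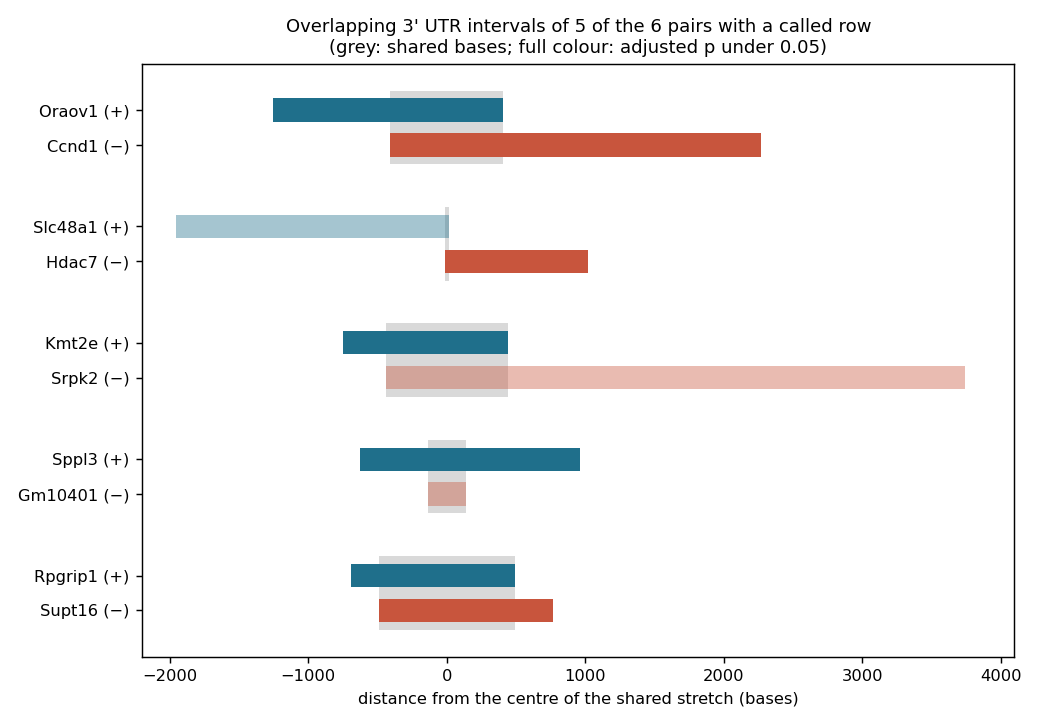
Intervals of 5 of the 6 pairs with a called row, drawn to scale as distance in bases from the centre of the shared stretch (x axis), with the plus-strand gene above the minus-strand gene. Grey marks the shared bases, from 29 in Slc48a1 and Hdac7 to 981 in Rpgrip1 and Supt16, and full colour marks rows with an adjusted p under 0.05.

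Ccnd1, the cyclin gene that drives entry into the cell cycle, faces Oraov1, a gene named for its overexpression in human oral cancers, on chromosome 7. Oraov1 spans 144929085 to 144930748 (plus strand) and Ccnd1 144929931 to 144932606 (minus strand). Their 818 shared bases are 49.2% of the Oraov1 interval. The authors' values of Oraov1 were 6.28 in KO IP and 7.92 in KO Input, against 8.05 in WT IP and 8.07 in WT Input. Those of Ccnd1 were 7.74 in KO IP and 9.11 in KO Input, against 9.69 in WT IP and 9.19 in WT Input. Both rows thus lay below Input in KO, and in WT the Oraov1 row was level with Input while the Ccnd1 row was above it. Which gene gave the reads of the 818 shared bases cannot be told apart in these values. Both passed in the authors' deposited table, Ccnd1 with 1.92 ± 0.43 (SE; Wald test, adjusted p = 0.00224) and Oraov1 with 1.65 ± 0.46 (Wald test, adjusted p = 0.0293). The difference of Oraov1 minus Ccnd1 was -0.27 (95% interval -1.50 to 0.97), with the SEs taken as independent here and below, although rows that share reads are not.

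Rpgrip1 and Supt16 shared the most bases of any called pair. Rpgrip1 encodes a protein of the photoreceptor connecting cilium, and Supt16 a subunit of the histone chaperone FACT, which works in transcription and replication in all cell types. The intervals lie at chromosome 14, 52160219 to 52161399 (plus strand) and 52160419 to 52161676 (minus strand), and their 981 shared bases are 83.1% of the Rpgrip1 interval. The authors' values of Rpgrip1 were 6.48 in KO IP and 6.65 in KO Input, against 7.85 in WT IP and 6.36 in WT Input. Those of Supt16 were 6.90 in KO IP and 6.85 in KO Input, against 8.29 in WT IP and 6.59 in WT Input. In both rows WT IP alone stood apart. The interactions in the authors' deposited table were 1.69 ± 0.50 for Rpgrip1 (SE; Wald test, adjusted p = 0.0405) and 1.68 ± 0.49 for Supt16 (Wald test, adjusted p = 0.0339), a difference of 0.004 (95% interval -1.37 to 1.38). From which of the genes the shared reads came cannot be told apart in these values.

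Kmt2e, a chromatin regulator of the trithorax family, and Srpk2, a kinase of splicing factors, share 880 bases on chromosome 5, or 74.1% of the Kmt2e interval. Kmt2e spans 23503048 to 23504235 (plus strand) and Srpk2 23503356 to 23507535 (minus strand). The authors' values of Kmt2e were 6.68 in KO IP and 8.38 in KO Input, against 7.83 in WT IP and 7.94 in WT Input. Those of Srpk2 were 7.44 in KO IP and 7.66 in KO Input, against 8.29 in WT IP and 7.47 in WT Input. The Kmt2e row thus lay below Input in KO and near it in WT. The Srpk2 row lay near Input in KO and above it in WT. Which gene gave the reads of the shared bases cannot be told apart in these values. In the authors' deposited table Kmt2e passed with 1.61 ± 0.45 (SE; Wald test, adjusted p = 0.0293), and Srpk2 did not with 1.07 ± 0.43 (Wald test, adjusted p = 0.206). Their difference, Kmt2e minus Srpk2, was 0.54 (95% interval -0.68 to 1.76), so that a call in 1 row alone does not show that the rows differed.

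Hdac7, a class IIa histone deacetylase gene, passed beside a partner whose interaction had the opposite sign. It shares only 29 bases with Slc48a1, a haem transporter gene, on chromosome 15, which is 2.81% of the Hdac7 interval (97792664 to 97793696, minus strand). The authors' values of Slc48a1 were 6.83 in KO IP and 6.90 in KO Input, against 6.61 in WT IP and 7.13 in WT Input. Those of Hdac7 were 6.97 in KO IP and 7.99 in KO Input, against 8.32 in WT IP and 7.79 in WT Input. In the authors' deposited table Hdac7 had 1.57 ± 0.39 (SE; Wald test, adjusted p = 0.0100) and Slc48a1 had -0.44 ± 0.44 (Wald test, adjusted p = 0.725). The difference of Slc48a1 minus Hdac7 was -2.01 (95% interval -3.17 to -0.85). Of the 95 distinct pairs with an adjusted p in both rows, this was the 1 pair whose interval for the difference left out 0. Among the tail-to-tail neighbours described below, which share no base, 6 of 39 pairs did so, some of them from the same locus.

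Sppl3, an intramembrane protease gene whose product trims Golgi glycosyltransferases, holds the gene model Gm10401 inside its interval, at 115097198 to 115098790 on the plus strand of chromosome 5. This pair was named after its values were seen, because the rule for names passes over such models. The 275 bases of Gm10401 had a mean normalized count of 36.5, and the whole Sppl3 interval 209 in the authors' deposited table. The authors' values of Sppl3 were 7.33 in KO IP and 6.95 in KO Input, against 8.75 in WT IP and 6.96 in WT Input. Those of Gm10401 were 4.97 in KO IP and 4.21 in KO Input, against 6.33 in WT IP and 4.19 in WT Input. The interactions in the authors' deposited table were 1.42 ± 0.40 for Sppl3 (SE; Wald test, adjusted p = 0.0306) and 1.37 ± 0.68 for Gm10401, which has no adjusted p. Gm10401 had 132.6 counts per kb, and the difference of the counts over the further bases of Sppl3 was 130.9 per kb, which are nearly equal.

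**Figure D3:**
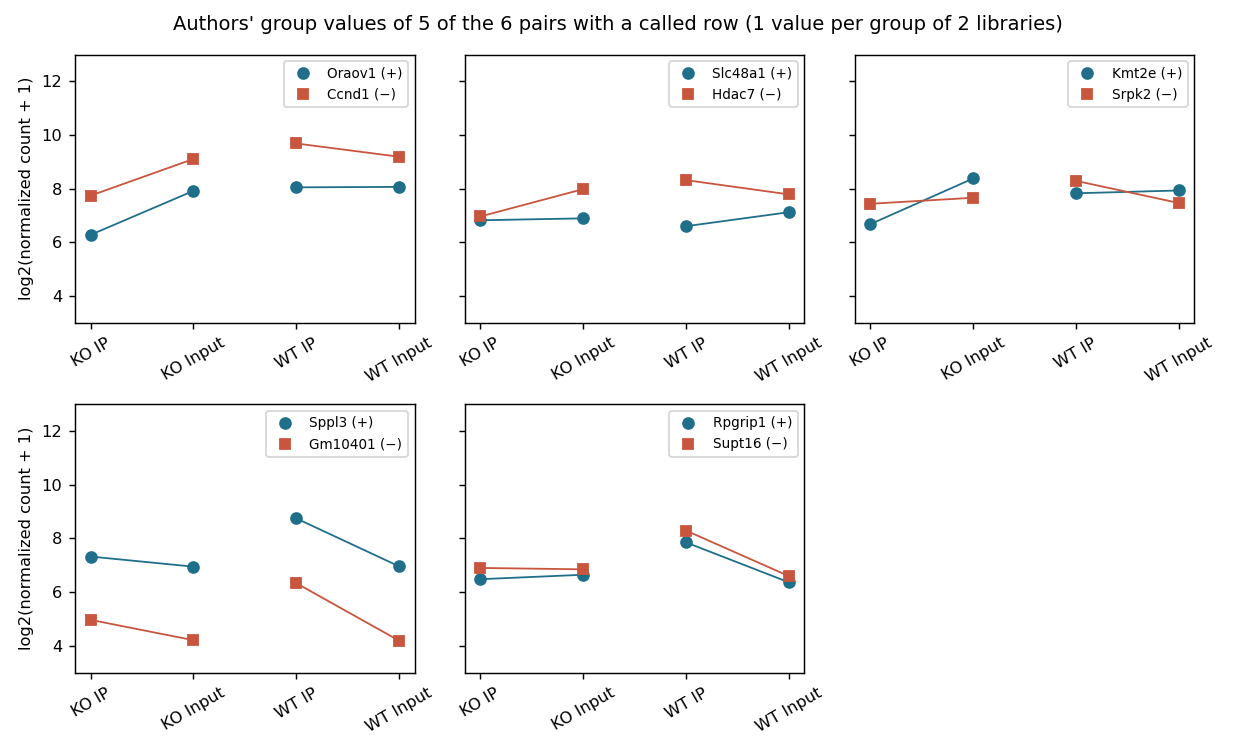
The authors' group values, log2(normalized count + 1) on the y axis, of the plus-strand row (circles) and the minus-strand row (squares) in KO IP, KO Input, WT IP and WT Input for 5 of the 6 pairs with a called row; each point is 1 value for a group of 2 libraries, with no error. Rpgrip1 and Supt16 run almost parallel, while in WT Slc48a1 lies below its Input and Hdac7 above.

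The values of a pair became more alike as the shared part grew. Over the 32 distinct pairs that share at least 75% of the shorter interval, the interactions of the partners differed by a median of 0.10 on the log2 scale. Over the 40 pairs that share 25% to under 75% the median difference was 0.21, and over the 23 pairs that share under 25% it was 0.48. The Spearman correlations of the partners' interactions were 0.86, 0.81 and 0.39 in the same order. Neighbours that end tail to tail within 1 kb of each other and share no base had a median difference of 0.45 and a correlation of 0.01 over 39 pairs. These are not all separate loci. On chromosome 9, Shisa5 and unnamed rows with the same start all face Gm42641, with differences from 1.30 to 1.88. The neighbours' values were not recomputed with that locus counted once. The SE of a difference was alike throughout, with medians of 0.72, 0.74 and 0.74 in the overlapping classes and 0.74 in the neighbours. These correlations are a description, because all points share the libraries and overlapping rows may share reads. Levels also grew alike, since the median log2 ratio of the partners' mean counts, taken without sign, was 0.33, 0.71 and 1.09 in the overlapping classes and 0.70 in the neighbours.

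**Figure D4:**
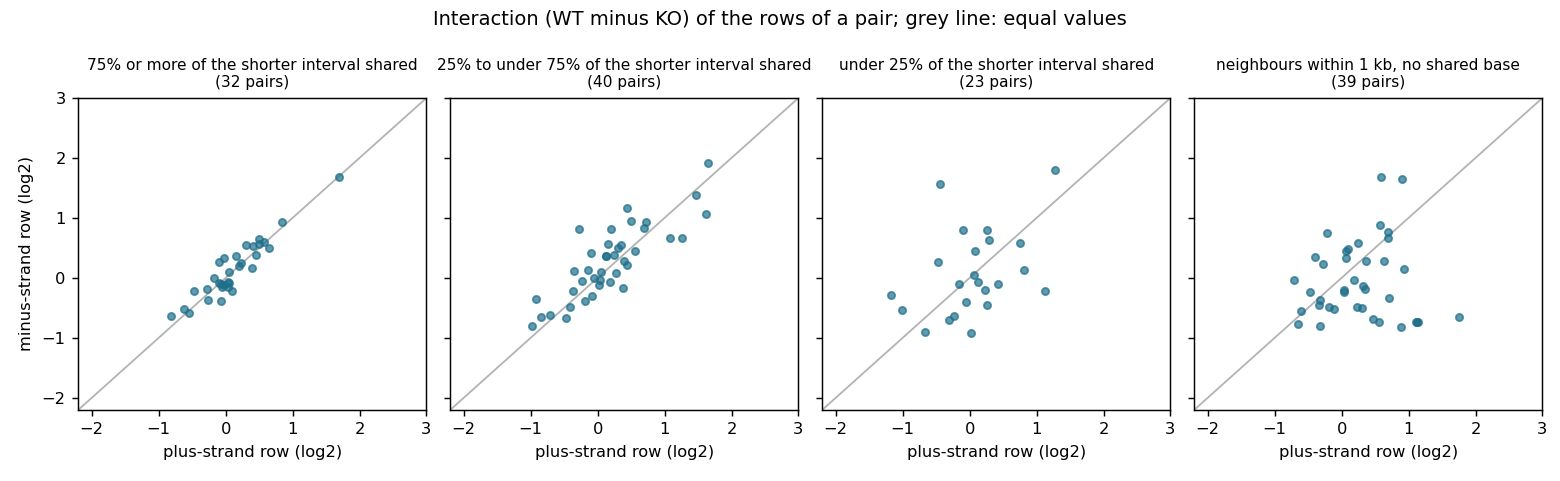
Interaction (log2, WT minus KO) of the plus-strand row (x axis) against that of the minus-strand row (y axis), 1 point per pair, for 3 classes of shared percentage and for neighbours that share no base; the grey line marks equal values. Points hug the line at 75% or more shared and spread away from it under 25% and in the neighbours.

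The same order held within each genotype. The Spearman correlation of the partners' recovery over Input in KO was 0.89 at 75% or more shared, 0.66 at 25% to under 75% and 0.27 under 25%, with 0.14 in the neighbours. In WT it was 0.94, 0.74 and 0.31, with 0.08 in the neighbours. Partners had interactions of opposite sign in 6 of 32, 8 of 40 and 9 of 23 pairs, and in 18 of 39 neighbour pairs. The neighbour pairs of opposite sign include every pair of the Gm42641 locus.

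Where one interval lies inside the other, its count never exceeded that of the outer row. The inner row had the higher mean normalized count in 0 of 157 pairs, and the higher group value in 0 pairs in each of KO IP, KO Input, WT IP and WT Input. Among the 433 neighbour pairs that share no base the shorter row had the higher count in 131, or 30.3%, and among the 317 partly overlapping pairs in 89, or 28.1%. Mean counts took part in choosing the members, so these counts are a description. The authors' counting rule was not tested. Of the intervals listed more than once on 1 strand, 89 have a count, and in all 89 the copies had equal mean counts.

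**Figure D5:**
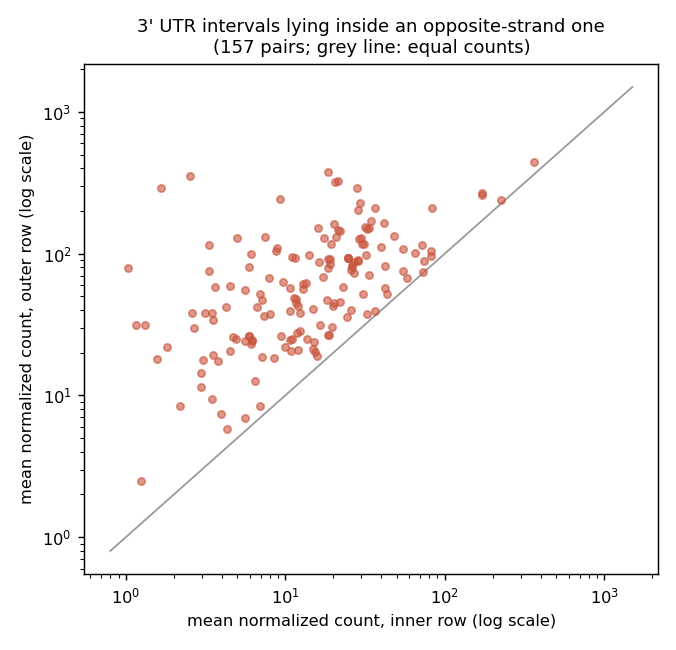
Mean normalized count of the inner row (x axis, log scale) against that of the outer row (y axis, log scale) for the 157 pairs with one interval inside the other; the grey line marks equal counts. All points lie above the line, and Fstl3 inside Prss57 lies nearest to it, with 73.4 and 74.7.

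Fstl3, an antagonist of activin, lies inside the 3' UTR of Prss57, a serine protease gene known from neutrophils. Fstl3 had a mean normalized count of 73.4 and Prss57 one of 74.7 in the authors' deposited table, a difference of 1.34, while the Prss57 interval is 640 bases longer. The authors' values were the same in both rows in KO IP (3.93) and in WT IP (4.19), and they were 7.14 for Fstl3 and 7.18 for Prss57 in KO Input and 6.86 and 6.88 in WT Input. Their interactions in the authors' deposited table were 0.58 and 0.60, and neither passed (Wald test, adjusted p = 0.770 and 0.756). The rows were thus nearly equal in every group. This was the only pair of the 157 with the same values in both immunoprecipitates.

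Other inner rows also had counts of at least 50% of the outer one in the authors' deposited table. Whether the outer count holds the reads of the inner row is not known, so differences and densities are arithmetic on the listed counts. Pcbp2, which encodes a poly(C)-binding protein, had 226.6 normalized counts and Map3k12, a stress kinase gene best known in neurons, 240.2, a difference of 13.6. Vcl, the gene of the adhesion protein vinculin, had 362.2 and Ap3m1, a subunit of the AP-3 sorting complex, 443.8. Vcl had 186.7 per kb, against 25.3 per kb for the difference of the counts over the further bases of Ap3m1. Rad9b, a checkpoint clamp paralogue, had 170.1 beside 267.7 for Pptc7, a mitochondrial phosphatase gene, and Snw1, a splicing and transcription factor, 170.8 beside 258.0 for Slirp, a mitochondrial RNA-binding protein. Of the 94 pairs of rows with an adjusted p in the outer row, 17 had an inner count of at least 50% of the outer one. In 21 of the 94 the counts differed by less than 42.9, the lowest level with an adjusted p. The inner count per kb exceeded the difference of the counts per further kb of the outer interval in 121 of the 157 pairs.

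The interactions of these partners lay close together. In the authors' deposited table the interactions were 0.20 for both Vcl and Ap3m1, 0.032 for Pcbp2 and -0.063 for Map3k12, and 0.30 for Slirp and 0.54 for Snw1. They were 0.85 for Pptc7 and 0.94 for Rad9b there, and none of these 8 rows passed (Wald test, adjusted p from 0.306 to 0.982). Recovery itself could still differ between partners, since Pptc7 lay below Input by 1.15 and Rad9b by 2.65 in KO, and by 0.32 and 1.79 in WT. Slirp and Snw1 lay far below Input in both genotypes, by 2.67 and 2.92 in KO and by 2.30 and 2.41 in WT. Vcl and Ap3m1 lay above Input, by 0.96 and 1.02 in KO and by 1.15 and 1.21 in WT. Ppib, the gene of the chaperone cyclophilin B, and the sorting nexin gene Snx22 around it also lay above Input, by 0.93 and 1.33 in KO and 1.43 and 1.69 in WT. B3gat2, a glucuronyltransferase gene, and Smap1, an Arf GTPase-activating protein, were near Input throughout, with interactions of -0.28 and -0.18 in the authors' deposited table.

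Several members are known mainly from tissues other than the mammary gland, and were picked out for that after values were seen. Rows of this kind with a well-counted partner include Cd247, the T cell receptor zeta chain, inside the transcription factor gene Pou2f1, with 29.5 normalized counts beside 227.9 in the authors' deposited table. Masp2, a complement protease of liver, had 21.5 beside 327.2 for Tardbp, an RNA-binding protein gene, and Cntd1, a gene of meiosis, had 74.0 beside 88.4 for the autophagy gene Becn1. Capn12, a calpain gene, shares 338 bases with Actn4, which encodes an actin crosslinker, and had 295.1 beside 727.4 in the authors' deposited table. From which gene of each pair the counts came cannot be told apart here.

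The named pairs that differed most for their SE were picked for that difference, whatever share they had. After Slc48a1 and Hdac7, the largest difference for its SE belonged to Nfatc3, a calcium-regulated transcription factor, and Esrp2, an epithelial splicing regulator, which share 18.6% of the shorter interval. Their interactions in the authors' deposited table were 1.12 and -0.22, a difference of 1.34 (95% interval -0.15 to 2.82). Map1lc3b, the autophagy gene LC3B, and Zcchc14 share 2.91% and differed by -0.90 (95% interval -2.02 to 0.22). Lzts2 and Pdzd7 share 32.0% and differed by -1.10 (95% interval -2.61 to 0.42). Yars, the tyrosyl-tRNA synthetase gene, and C77080 share 30 bases and differed by -0.89 (95% interval -2.29 to 0.51). Erbb2, a growth factor receptor gene, and Mien1 share 9 bases and differed by 0.94 (95% interval -0.69 to 2.57). These 5 intervals include 0. Mafk and Tmem184a, which share 7.92%, had 0.063 and 0.046 in the authors' deposited table. That pair was picked for its small difference, so it says nothing of small shares in general.

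Nfix, a nuclear factor I gene, had the highest mean normalized count of the members named here, 1083 in the authors' deposited table, and shares 4 bases with the blood cell factor gene Lyl1, which had 5.49. Stat3 and Stat5a, transcription factors of cytokine signalling that act in opposite phases of the mammary cycle, face each other on chromosome 11 with 72 shared bases. The authors' values of Stat5a were 7.10 in KO IP and 7.98 in KO Input, against 7.26 in WT IP and 7.72 in WT Input. Those of Stat3 were 9.53 in KO IP and 10.14 in KO Input, against 9.30 in WT IP and 10.02 in WT Input. Both lay below Input in both genotypes, and their interactions of 0.42 and -0.10 in the authors' deposited table did not pass (Wald test, adjusted p = 0.731 and 0.928).

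Among members with a negative interaction, which means a higher recovery in KO, none passed. Pairs with a gene model or a row without a symbol were passed over in the ranking that follows. In the remaining pairs the smallest p belonged to the glycolytic enzyme gene Tpi1, which shares 34 bases with Spsb2. Tpi1 had -1.05 ± 0.42 in the authors' deposited table (SE; Wald test, adjusted p = 0.211). Yars had -1.17, Tlcd1, whose interval holds the 48 bases of the ribosomal protein gene Rpl23a, -1.02, and Tmem55b, whose interval holds the DNA repair gene Apex1, -0.93 in the authors' deposited table. Their adjusted p-values there ran from 0.311 to 0.348 (Wald test).

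Of 15 listed cell cycle genes 3 are members, Ccnd1, Ccnd3 and Cdk4, and only Ccnd1 passed. Cdk4, the kinase partner of D-type cyclins, and Tspan31, a tetraspanin, share 75.6% of the shorter interval and had -0.064 and -0.39 in the authors' deposited table. Ccnd3 and Bysl, a ribosome biogenesis factor, share 39.5% and had -0.23 and -0.054 there. None of the 19 listed published CPEB targets is a member. Members make up 4.56% of all rows, and both lists are too short to be set against that share.

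The members' interactions as a whole had a lower median than those of other rows. Their median was 0.021 in the authors' deposited table, with 50.8% above 0, against 0.24 and 66.2% over the 4949 other adjusted rows. With the median of all adjusted rows subtracted, the members' median was -0.21, and that step lowers the other rows by the same amount. The members ran from -1.22 to 1.92, with quartiles of -0.30 and 0.41. Median recovery over Input was -0.069 in KO and -0.057 in WT for the members, against 0.16 in KO and 0.32 in WT for the other rows. Members had shorter intervals (median 1684 bases) than other rows (1830), and lower mean normalized counts (median 84.1 against 104.9). Within rows of at most 1297 bases the medians were -0.12 over 144 members and -0.093 over 1634 others. From 1298 to 2483 bases they were -0.0026 and 0.26, over 117 and 1657 rows, and from 2487 bases 0.19 and 0.50, over 117 and 1658 rows. The gap between members and others was wider in the longer intervals. No test was made of these medians, and they share the libraries of every row.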

How the data were processed

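RIP-seq of mouse mammary cells gave 8 libraries in 4 groups of 2. Tools the authors used, per the submitters' processing notes, are Bowtie2 2.2.2, Bowtie 0.12.9 and DESeq2, and the build is mm10. No version of DESeq2 is named by the authors, and the counting rule is stated nowhere in the sources used here. The authors deposited group values as log2 of a normalized count plus 1, the mean normalized count as a signal, the interaction as a log2 fold change with its SE, its Wald score, and p-values with adjusted p-values, per the file headers. The scale of the group values was read from the values. Another 8 columns of values per library carry names that the labels do not pair with samples, and were not used. Depth is therefore unknown, and counts per library could not be fitted.

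Intervals of opposite strand sharing at least 1 base were paired in Python 3.11.15 with pandas 2.3.3, numpy 2.4.6 and scipy 1.17.1, and plotted with matplotlib 3.10.9. Pairs repeating the same intervals counted once in comparisons of partners. Differences between partners used the combined SE. With 2 libraries a group, p-values reflect only how far these libraries vary, and that variation may be technical. The overlap search, adjustment and counting check were tested on simulated data. Members, lists and names were chosen with earlier results of these data known. Named pairs were those with a called row (1 is not reported here), the 6 with the largest shared percentage, the 6 most and 4 least different for their SE (both kinds among pairs with an adjusted p in both rows), the 4 with the smallest p among negative interactions, the 4 with the highest counts, and the pair of Ccnd1, passing over gene models (Gm, Rik, LOC) and rows with no symbol. Alternatives changed the overlap, count level, adjustment and zero point.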

Additional observations from a re-analysis of the deposited data

Results flagged for a closer look

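IP over Input differed between KO and WT in 7 of the member rows described above by the interaction in the authors' deposited table (DESeq2 Wald test, adjusted p of 0.05). The values (log2, WT minus KO) were 1.92 for Ccnd1, 1.57 for Hdac7, 1.61 for Kmt2e, 1.65 for Oraov1, 1.42 for Sppl3, 1.68 for Supt16 and 1.69 for Rpgrip1, all lower in KO. Of these 7, Ccnd1 with Oraov1 and Supt16 with Rpgrip1 are partners, so these calls stand for 5 pairs.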

How the results depend on the processing

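The number of pairs was 388 with at least 50 shared bases, 399 with at least 10% of the shorter interval shared, 319 with a mean count of at least 10 in both rows, and 98 pairs of 193 rows with an adjusted p in both. Of the 8 called members, 3 (Ccnd1 and Hdac7 among them) passed with every row in the adjustment, 2 (Ccnd1 among them) with the median of all adjusted rows subtracted, and 1 (Hdac7) with a running median over 3' UTR length subtracted, by recomputed Wald tests. Over all rows the deposited count of 120 became 45, 30 and 17 under the same alternatives. No called member thus passed under all 3. An adjusted p of 0.10 also gave 8, and 0 members were higher in KO under each of these settings. The members' median of 0.021 became -0.079 over every member with a p-value, -0.054 at a mean count of at least 10 and -0.21 with the median of all rows subtracted, so its sign is not fixed. Medians of other rows over every row with a p-value, or at that mean count, are not given here. The median difference of partners was 0.42 over every pair, and 0.16 to 0.30 under the other settings. The neighbours' Spearman correlation was 0.20 within 5 kb. The cause of these shifts was not tested. No paired analysis was possible because the group columns carry no replicate, and leaving out a library was not run for the same reason.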
